A study of Mus musculus with 16 samples.

Results

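The Wnt ligands, their Frizzled (Fzd) receptors and the secreted inhibitors of the Sfrp and Dkk families were followed in primary mouse lung fibroblasts. Members were all genes of the deposited table whose symbol is Wnt, Fzd, Sfrp or Dkk with a number: 37 of 54331 listed genes, made up of 19 Wnt, 10 Fzd, 4 Sfrp and 4 Dkk genes. A mean of at least 10 normalized counts over the 8 libraries was reached by 23 of them (9 Wnt, all 10 Fzd, 2 Sfrp and 2 Dkk), and these 23 were tested beside 15527 genes in all. Just above that line lay Fzd9 with a mean of 11 and Fzd10 with 11.8, and just below it Sfrp2 with 7.37.

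Wnt proteins are lipid-modified secreted ligands that bind Frizzled receptors at the cell surface. With Lrp5 or Lrp6 as co-receptor they stabilise beta-catenin, which acts with TCF and LEF factors on target genes, and with other co-receptors they steer cell polarity and movement. Sfrp proteins bind Wnts outside the cell, and several Dkk proteins, Dkk2 among them but not the divergent Dkk3, bind the Lrp co-receptors. In the lung, Wnt signals between mesenchyme and epithelium guide development and repair.

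The study used C57BL/6 mice, either wild type (WT) or labelled as knockout of ST2 (KO), the receptor of the cytokine IL-33 that the gene Il1rl1 encodes. Cultures of primary lung fibroblasts were infected with an adenovirus, and RNA was sequenced 72 h later. The virus carried mouse IL-33 in full length (FL) or in its mature form (M), or no coding insert (NULL), so the control cultures were infected as well. Each genotype had 2 NULL libraries, 1 FL library and 1 M library. The 8 samples of unseparated lung cells were not analysed here: the table assigned to them carries the fibroblast titles and, in all but 2 of 434648 cells, identical values. Whether the NULL libraries of a pair are separate cultures or animals is not stated, so p-values rest on the spread between the samples at hand, and that spread may be technical only. The comparisons ask whether the genotype, the IL-33 virus, or the virus differently in each genotype went with other levels of the Wnt genes.

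Values are the authors' normalized counts, with library totals of 2.39e+07 to 2.92e+07 and 1 read worth about 0.706 to 1.18. The fibroblast markers Col1a1 (217130.0 to 381061 normalized counts), Pdgfra (1695 to 2298) and Dcn (6645 to 11009) were present in all libraries. In WT M, however, limma called 10 of 12 fibroblast markers lower, among them Lum at 90.6 against 929 and 1056 in WT NULL, and all tested mesothelial and macrophage markers higher. Il33 stood at 193 to 216 in the 4 NULL libraries, 593840 in WT FL, 248956 in WT M, 1080220 in KO FL and 81110 in KO M, so the virus transcript was not matched between libraries. Il1rl1 was 18.3 and 106 in the WT NULL pair and 73.1 and 69.2 in the KO NULL pair, a sum over the whole gene that cannot show a deletion of part of it. The WT M library stood apart from the other 7: limma called 49.3% of all tested genes between it and the WT NULL pair, against 7.39% for WT FL. For the members, genotype and combined IL-33 results are therefore also given without it. In a bulk culture, fewer cells of a type and less RNA per cell cannot be told apart.

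Promoter sequences of 3 members are shown first. Wnt11 and Fzd7 are the tested members that hold the motif of the pathway's own transcription factors, and Fzd5 is shown as an abundant receptor without it. Wnt11 is a ligand of the beta-catenin-independent branch, Fzd7 is the receptor with the highest level per kb in KO, and Fzd5 is the receptor with the largest fall in WT M, as fitted below. Each line gives the 250 bases before the RefSeq start of the gene in GRCm38.p6, read 5′ to 3′ on the strand of the gene, in lower case. Capitals mark the TCF/LEF core, CTTTG followed by A or T at each of the next 2 positions, searched on both strands. No other motif was searched. Here it lies on the opposite strand of both genes that hold it.

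Wnt11 promoter, chr7:98834862-98835111, plus strand: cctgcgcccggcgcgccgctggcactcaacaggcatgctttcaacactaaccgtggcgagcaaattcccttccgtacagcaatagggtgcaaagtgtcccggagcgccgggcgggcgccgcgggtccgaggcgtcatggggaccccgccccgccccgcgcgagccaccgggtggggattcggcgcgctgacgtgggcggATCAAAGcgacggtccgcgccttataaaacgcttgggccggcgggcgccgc
Fzd7 promoter, chr1:59481897-59482146, plus strand: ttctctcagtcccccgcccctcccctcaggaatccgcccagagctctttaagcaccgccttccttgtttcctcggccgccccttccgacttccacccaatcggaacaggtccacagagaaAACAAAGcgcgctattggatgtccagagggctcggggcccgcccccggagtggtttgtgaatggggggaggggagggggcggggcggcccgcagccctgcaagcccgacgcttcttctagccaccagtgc
Fzd5 promoter, chr1:64737751-64738000, minus strand: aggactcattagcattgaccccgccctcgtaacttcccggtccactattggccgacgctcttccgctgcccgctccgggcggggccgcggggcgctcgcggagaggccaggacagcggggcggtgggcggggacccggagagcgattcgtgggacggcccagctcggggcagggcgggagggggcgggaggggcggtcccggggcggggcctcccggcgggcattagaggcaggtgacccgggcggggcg

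RefSeq windows were matched for 25 of the 37 members and 15 of the 23 tested. The core was found in 2 of those 15, Wnt11 and Fzd7, and in 14.8% of 32851 promoter windows of the same length. The Fzd5 window holds no such letters and 32 CpG dinucleotides, against 17 for Fzd7 and 37 for Wnt11. A match describes letters only. Windows for Sfrp1 and Fzd6 were not used here.

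Among the ligands, Wnt5a was by far the most abundant. Per kb of exon in the WT NULL pair it averaged 582 normalized counts, followed by Wnt9a with 155, Wnt11 with 26.9, Wnt5b with 24.4 and Wnt2b with 9.94. Wnt4 (8.51), Wnt16 (6.76), Wnt10b (6.42) and Wnt2 (4.16) closed the order on this per-length scale. Neighbours whose NULL values overlapped were Wnt11 with Wnt5b and Wnt16 with Wnt10b, in both genotypes.

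The level of Wnt5a, a ligand of the beta-catenin-independent branch, was 4602 and 4504 in the WT NULL pair, 4414 in WT FL and 2805 in WT M. In the KO libraries it was 4256 and 4185 in the KO NULL pair, 3869 in KO FL and 4138 in KO M. WT M was the lowest of the 8 libraries, and the NULL pairs of the genotypes were close without overlapping. Wnt9a, a ligand known from joint formation, stood at 485 and 546 in the WT NULL pair, 419 in WT FL and 593 in WT M, and at 364 to 397 in the KO libraries. All 4 KO libraries were below all 4 WT libraries.

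**Figure D1:**
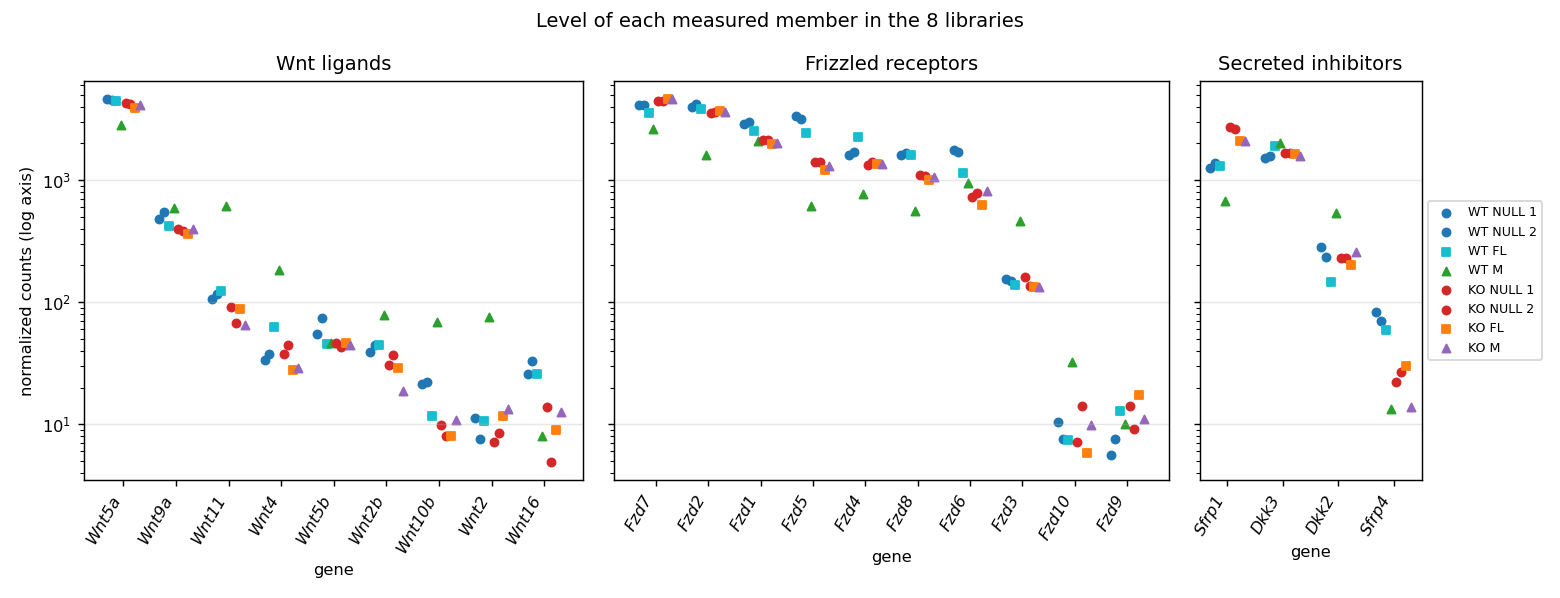
Normalized counts (vertical, log axis) of the 23 measured members in each of the 8 libraries; circles are NULL libraries, squares FL and triangles M, coloured by genotype and virus. Wnt5a leads the ligands at 2805 to 4602, and the WT M triangles stand apart from the other libraries for many members.

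Wnt11 held 106 and 117 in the WT NULL pair, 124 in WT FL and 611 in WT M, with 65.3 to 91.2 in KO. WT M was several times above every other library, and even without it the WT values lay above the KO values. Wnt4, a ligand needed for kidney and female reproductive tract development in the mouse, was 33.7 and 37.7 in the WT NULL pair, 62.1 in WT FL and 184 in WT M, and 37.8 and 44.5 in the KO NULL pair, 27.9 in KO FL and 28.7 in KO M. Both IL-33 libraries were above the NULL pair in WT, while both were below it in KO.

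Wnt2, a ligand of the lung mesenchyme that acts with Wnt2b in specifying the lung of the mouse embryo, was near the low end, with 11.2 and 7.54 in the WT NULL pair, 10.7 in WT FL and 75.5 in WT M. Its KO values ran from 7.09 to 13.3, so WT M alone stood out. Wnt2b was 39.3 and 44.2 in the WT NULL pair, 45 in WT FL and 78.5 in WT M, and 30.7 and 36.7 in the KO NULL pair, 29.1 in KO FL and 18.8 in KO M. Its KO libraries all lay below the WT libraries, with KO M the lowest and WT M the highest.

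Wnt10b, a beta-catenin-dependent ligand that favours bone over fat formation, was 21.3 and 22.4 in the WT NULL pair, 11.7 in WT FL and 69.2 in WT M, against 7.99 to 10.9 in KO. Every KO value was below every WT value, though WT FL and KO M were close. Wnt16, a ligand known from bone, was 26 and 32.9 in the WT NULL pair, 25.6 in WT FL and 8.05 in WT M, and 13.9 and 4.91 in the KO NULL pair, 8.92 in KO FL and 12.6 in KO M. WT M fell within the KO range, and the other 3 WT libraries lay above it. Wnt5b, a close relative of Wnt5a, was 55.3 and 74.2 in the WT NULL pair, 45.3 in WT FL and 46.6 in WT M, and 42.9 to 46.6 in KO, where WT FL lay within the KO range and WT M level with its upper end.

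The share of Wnt5a in the summed level per kb of the 9 ligands was 72.2%, 69.1% and 72.7% in WT NULL and WT FL and 74.3% to 75.5% in the KO libraries, but 43.7% in WT M. There Wnt11 made up 18%, against 2.24% to 3.86% in the other 7 libraries. The sum itself was 815, 833, 777 and 820.1 per kb in WT NULL, WT FL and WT M, and 666 to 729 in KO. WT M lay within the range of the WT sums while its make-up of ligands differed.

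The other 10 Wnt genes stayed below the mean of 10. Wnt3a, Wnt8b and Wnt9b were listed at 0 in all 8 libraries, where 3 reads would be 2.12 to 3.55 normalized counts, for counting error only. Wnt7b reached 11.1 in WT M and at most 2.44 elsewhere. Wnt6 was 2.88 to 7.99 in WT, 2.15 in KO NULL 1 and 0 in the other 3 KO libraries. Wnt10a was 0 to 7.54, Wnt3 0 to 7.05, Wnt7a 0 to 4.03, Wnt1 0 to 2.01 and Wnt8a 0 to 1.11. These genes were left out of the tests. With no filter on level, limma called Wnt6 lower in KO over the viruses (adjusted p = 0.0495), a change of a few reads per library.

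All 10 Frizzled receptors were measured, and 7 of them were abundant. Per kb of exon in the WT NULL pair the order was Fzd2 (1112 normalized counts), Fzd7 (912), Fzd1 (698), Fzd5 (470.0), Fzd6 (359), Fzd8 (274) and Fzd4 (245), with no overlap between neighbours. Fzd3 (11.9) followed, and Fzd9 (2.87) and Fzd10 (2.77) overlapped at the bottom. In the KO NULL pair Fzd7 (989) came first, then Fzd2 (971) and Fzd1 (507), and Fzd5 and Fzd4 overlapped.

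Fzd1, Fzd2 and Fzd7 form the most closely related group of receptors. Fzd7 was 4155 and 4115 in the WT NULL pair, 3536 in WT FL and 2612 in WT M, and 4479.6 to 4593 in KO. All KO libraries were above all WT libraries, by a small margin for the NULL pair. Fzd2 was 3942 and 4206 in the WT NULL pair, 3853 in WT FL and 1611 in WT M, and 3522 to 3656 in KO, so WT M was the only library far from the rest. Fzd1 was 2860.4 and 3001 in the WT NULL pair, 2532 in WT FL and 2089 in WT M, and 1974 to 2135 in KO. Its WT NULL and WT FL values were above every KO value, while WT M lay within the KO range.

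Fzd5 and Fzd8 are a further related pair. Fzd5 (chromosome 1, bases 64730558 to 64737751, minus strand) was 3359 and 3141 in the WT NULL pair, 2409 in WT FL and 613 in WT M, and 1409.6 and 1405 in the KO NULL pair, 1211 in KO FL and 1309 in KO M. All 4 KO libraries were below WT NULL and WT FL, and WT M was the lowest of all. Fzd8 was 1612 and 1664 in the WT NULL pair, 1603 in WT FL and 558 in WT M, and 1107 and 1089 in the KO NULL pair, 994 in KO FL and 1051 in KO M. Its order of libraries was the same in outline, with WT M lowest and the other 3 WT libraries highest.

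Fzd6, a receptor that with Fzd3 works in planar cell polarity, lies on chromosome 15, bases 39006034 to 39038188, plus strand. It was 1776 and 1688 in the WT NULL pair, 1144 in WT FL and 950.2 in WT M, and 728 and 781 in the KO NULL pair, 629 in KO FL and 811 in KO M. Every WT library was above every KO library, and within WT both IL-33 libraries were below the NULL pair. Fzd3 was 156 and 149 in the WT NULL pair, 139 in WT FL and 464 in WT M, and 132 to 161 in KO, so WT M was alone at the top. Fzd4, also the receptor of Norrin in retinal vessels, was 1599 and 1698 in the WT NULL pair, 2268 in WT FL and 762 in WT M, and 1331 and 1409.5 in the KO NULL pair, 1363 in KO FL and 1356 in KO M. In WT the FL library was above and the M library below the NULL pair, while the KO libraries differed little.

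The low receptors Fzd9 and Fzd10 ran from 5.62 to 17.4 and from 5.81 to 32.2 normalized counts, with the highest Fzd10 value in WT M. Summed per kb over the 10 receptors, the level was 4054, 4124 and 3646 in WT NULL and WT FL, 2057 in WT M and 3177 to 3251 in the KO libraries. KO libraries were below WT NULL and WT FL, and WT M was lowest. Fzd5 made up 11% to 12% of that sum in WT NULL and 5.52% to 6.33% in KO, while Fzd7 made up 22.0% to 22.6% and 30.4% to 31.9%.

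**Figure D2:**
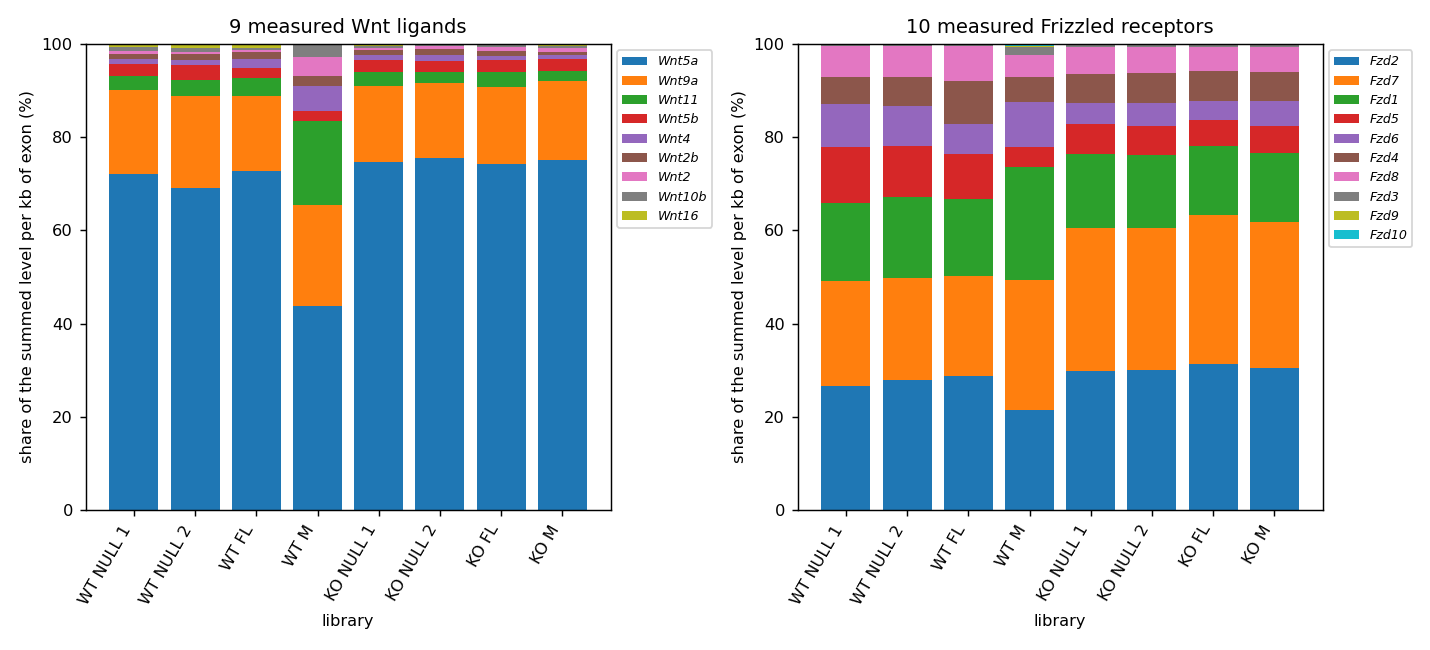
Share (%) of each measured member in the summed level per kb of exon of its family, by library, for the 9 Wnt ligands (left) and the 10 Frizzled receptors (right). The Wnt5a segment is 43.7% in WT M and 69.1% or more elsewhere, and the Fzd5 segment is narrower in the KO libraries than in WT NULL.

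Of the secreted inhibitors, Dkk3 (462 normalized counts per kb in the WT NULL pair) and Sfrp1 (299) were abundant, with Dkk2 (70.1) and Sfrp4 (18.3) lower. In the KO NULL pair Sfrp1 (611) came above Dkk3 (499).

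Sfrp1 (chromosome 8, bases 23411502 to 23449632, plus strand) was 1249 and 1368 in the WT NULL pair, 1294 in WT FL and 679.7 in WT M, and 2747 and 2599 in the KO NULL pair, 2072 in KO FL and 2084 in KO M. Every KO library was above every WT library, and the IL-33 libraries of KO were below its NULL pair. Sfrp4 was 82.5 and 70.0 in the WT NULL pair, 58.7 in WT FL and 13.2 in WT M, and 22.2 and 26.9 in the KO NULL pair, 30.2 in KO FL and 13.9 in KO M. WT NULL and WT FL lay above the KO libraries, and WT M was level with KO M, less than 1 read apart.

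Dkk3, a divergent family member, was 1521 and 1585 in the WT NULL pair, 1886 in WT FL and 2012 in WT M, and 1586 to 1678 in KO. Both IL-33 libraries were above the NULL pair in WT and both below it in KO. Dkk2, which binds the Lrp5 and Lrp6 co-receptors, was 285 and 235 in the WT NULL pair, 146 in WT FL and 534 in WT M, and 199.9 to 259.8 in KO. In WT the FL library was the lowest and the M library the highest of all 8. The remaining inhibitors were scarce: Sfrp2 ran from 2.68 to 13.4, Sfrp5 from 0 to 3.02, Dkk1 from 0 to 2.01, and Dkk4 was above 0 in KO M alone, at 1.11, about 1 read.

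Between the genotypes, averaged over the viruses, the Wnt inhibitor Sfrp1 was higher in KO and the receptors Fzd6 and Fzd1 were lower. Sfrp1 rose with a limma log2 difference of 1.09 (SE 0.19, adjusted p = 0.0138). Fzd6 fell with a limma log2 difference of -0.87 (SE 0.10, adjusted p = 0.00411). Fzd1 fell with a limma log2 difference of -0.34 (SE 0.07, adjusted p = 0.0301). These 3 of 23 members passed, against 11.9% of all tested genes, so the members' share was close to the background. No Wnt ligand or Dkk member passed limma's threshold. An unadjusted p below 0.05 was found for 5 of the 9 ligands and for 4415 of all 15527 tested genes. Of the ligands, Wnt9a had -0.40 (adjusted p = 0.0864) and Wnt2b -0.81 (adjusted p = 0.0923). The median over the 23 members was a log2 value of -0.40, beside 0.0013 over all tested genes, and 18 of the 23 values were below 0. Wnt10b, Wnt2 and Fzd10 are among the 18, and each reached the mean of 10 only through WT libraries. Their values below 0 are tied to having been tested, and the median is the value of Fzd10.

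The 4 KO and the 4 WT libraries did not overlap for 7 members. KO was higher for Sfrp1 and Fzd7 and lower for Fzd6, Wnt9a, Wnt11, Wnt2b and Wnt10b. Wnt10b reached the mean of 10 only through the WT libraries. Its lower values in KO, here and in the genotype fits, are therefore tied to having been tested. Of all tested genes, 20.5% had such separate genotypes.

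This fit treats FL and M as replicates, so its spread holds the difference between WT FL and WT M. With 6 groups, the spread comes from the NULL pairs and single libraries are taken to vary as they do; 14 members passed, against 40.8% of all genes. Of these, Sfrp1, Fzd7 and Fzd2 were higher in KO, and Fzd6, Fzd5, Fzd1, Fzd8, Fzd3, Wnt11, Wnt9a, Wnt10b, Wnt4, Wnt2b and Sfrp4 were lower. Without WT M, 13 members passed, against 40% of all genes; the value was -0.94 (adjusted p = 6.72e-05) for Fzd6, 0.86 (adjusted p = 3.52e-06) for Sfrp1 and -0.40 (adjusted p = 7.66e-05) for Fzd1. Without WT FL, 16 passed, against 38.3%. Which of these single libraries was kept set the direction for some members, Fzd2, Fzd4, Fzd8 and Wnt5a among them. Without WT M, Fzd2 (-0.14), Fzd4 (-0.50), Fzd8 (-0.61) and Wnt5a (-0.13) were lower in KO. Without WT FL these genes were higher, at 0.49, 0.28, 0.15 and 0.20. Leaving out either WT NULL, either KO NULL, KO FL or KO M left Fzd6 alone past the threshold.

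**Figure D3:**
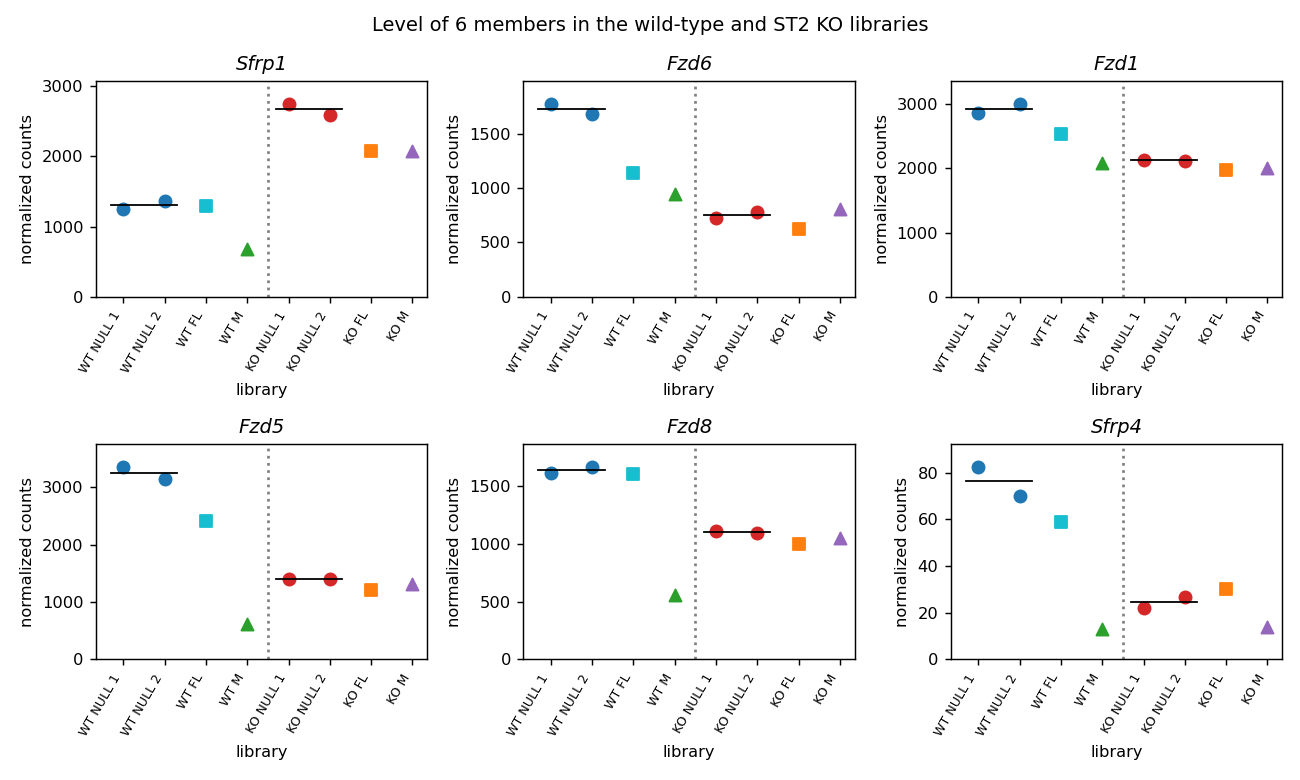
Normalized counts (vertical, from 0) of 6 members in the 8 libraries, with WT left and KO right of the dotted line; the horizontal line is the mean of each NULL pair. Sfrp1 is higher and Fzd6 lower in all 4 KO libraries. For Fzd5 and Fzd8 WT M lies below the KO libraries, and for Sfrp4 it is level with KO M.

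With the NULL virus alone, the difference is taken between the NULL pairs. Its SE and p in the fit with 4 groups still rest partly on the spread between the FL and M libraries. KO cells again held less Fzd6, with a limma log2 difference of -1.20 (SE 0.15, adjusted p = 0.0089). It was the only one of the 23 members past the threshold, against 4.28% of all genes. Fzd1 had -0.46 (adjusted p = 0.0569) and Sfrp1 1.03 (adjusted p = 0.0853), just outside it. The levels of the NULL pairs did not overlap for 20 of the 23 members, but the same held for 68.4% of all genes. Leaving out any of the 4 NULL libraries lost Fzd6 as well, at adjusted p = 0.0866 to 0.11.

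Where the spread came from the NULL pairs alone (6 groups), 11 of 23 members passed, against 32.8% of all genes: 10 were lower in KO and 1, Sfrp1, was higher. Of the receptors, Fzd5 fell with a limma log2 difference of -1.21 (SE 0.06, adjusted p = 1.95e-05) and Fzd6 with -1.20. Fzd8 fell by 0.58, Fzd1 by 0.46, Fzd4 by 0.27 and Fzd2 by 0.20 on the log2 scale. Among ligands, Wnt9a fell by 0.40, Wnt10b by 1.20 and Wnt16 by 1.69, with adjusted p of 0.0166, 0.0371 and 0.0441. The inhibitors moved apart: Sfrp1 was higher by 1.03 (limma adjusted p = 6.47e-05) and Sfrp4 lower, at -1.60 (adjusted p = 0.00438). Wnt10b reached the mean of 10 only through the WT libraries, so its fall is tied to having been tested. Fitted with 4 groups, the count was 11 without WT FL and 10 without WT M, where 32.3% and 32.5% of all genes passed.

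Markers of other cells also differed by genotype, to be read against the 11.9% of all genes that passed in the averaged comparison. In the averaged comparison 4 of 8 endothelial markers were lower in KO, with a summed level of 233 to 260 in KO and 427 to 678 in WT libraries. Of the epithelial markers 4 of 7 were lower (74.1 to 377 in KO and 536 to 1773 in WT), with Sftpb at 0 in KO NULL 1 and Sftpc at 0 in KO NULL 2. With IL-33, Sftpb was 55.8 in KO FL and 57.3 in KO M, beside 49.6 in WT FL and 54.3 in WT M. Sftpc was 162 in KO FL and 156 in KO M, beside 233 in WT FL and 147 in WT M. Within KO, limma called both genes higher with FL and M combined than with NULL. Of the mesothelial markers 5 of 9 were lower, though their sum overlapped (2035 to 2336 in KO and 2290 to 8602 in WT). Of the smooth muscle and pericyte markers 4 of 10 were higher and 2 lower, with Rgs5 at 78.5 to 129 in KO and at 3709 and 3820.2 in WT NULL, 2002 in WT FL and 147 in WT M. Of the fibroblast markers 1 of 12 and of the macrophage markers 1 of 11 were higher. The endothelial marker Emcn (6.05 to 8.55 in KO) and the mesothelial marker Krt18 (5.53 to 13.9) reached the mean of 10 only through the WT libraries. Their calls are therefore tied to having been tested. The part of all these markers in the genotype differences of the Wnt genes was not tested.

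In wild-type cells, FL and M combined changed none of the 23 members past limma's threshold, where 0.264% of all genes passed. An unadjusted p below 0.05 was found for 6 members and for 3425 of all 15527 genes. The smallest p belonged to Fzd6, at -0.73 (SE 0.15, adjusted p = 0.104), Dkk3, at 0.33 (SE 0.08, adjusted p = 0.125), and Fzd1, at -0.35 (SE 0.10, adjusted p = 0.158). With 6 groups 15 members passed, against 37.4% of all genes. Without WT FL 18 members passed, against 48.3% of all genes, and without WT M 6, against 7.31%. Each library was therefore set against the NULL pair on its own.

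Full-length IL-33 in WT went with lower Fzd6, Fzd5, Fzd7 and Dkk2 and with higher Fzd4 and Dkk3. These 6 of 23 members passed, against 7.39% of all genes. Fzd6 fell, with a limma log2 difference of -0.60 (SE 0.08, adjusted p = 0.00885), and Fzd5 with -0.43 (SE 0.07, adjusted p = 0.0153). Fzd7 fell by less, at -0.23 (SE 0.05, adjusted p = 0.0397). Fzd4 rose, with 0.46 (SE 0.07, adjusted p = 0.0162). The inhibitors split: Dkk2 fell, at -0.82 (SE 0.15, adjusted p = 0.0255), and Dkk3 rose, at 0.28 (SE 0.06, adjusted p = 0.0469). No ligand passed; Wnt4 was the nearest, at 0.78 (adjusted p = 0.143). The count fell to 3 without WT NULL 1, to 4 without WT NULL 2 and to 1, Fzd6, without either KO NULL library. Summed smooth muscle and pericyte markers in WT FL were 0.734 and epithelial markers 0.329 times the WT NULL mean, with 6 of 10 and 0 of 7 markers called lower; their part in the result was not tested.

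Mature IL-33 in WT went with the widest change. Wnt2, Wnt11, Wnt4, Wnt10b and Wnt2b were higher, Wnt5a, the abundant receptors and both measured Sfrp inhibitors were lower, and both measured Dkk inhibitors were higher. In all, 19 of 23 members passed, 9 higher and 10 lower, against 49.3% of all genes. The median over the 23 was -0.45, beside -0.015 over all genes. Wnt2 and Fzd10 reached the mean of 10 only through WT M, so their rise is bound up with having been tested.

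Of the 9 ligands, 5 rose and 1 fell. Wnt2 rose most, with a limma log2 difference of 2.90 (SE 0.49, adjusted p = 0.00276), then Wnt11, at 2.45 (SE 0.23, adjusted p = 0.00019), and Wnt4, at 2.34 (SE 0.27, adjusted p = 0.000538). Wnt10b, at 1.62 (SE 0.43, adjusted p = 0.0181), and Wnt2b, at 0.90 (SE 0.30, adjusted p = 0.0426), rose as well, the latter close to the threshold. Wnt5a, the main ligand, fell, with -0.70 (SE 0.05, adjusted p = 5.4e-05). Wnt16, Wnt9a and Wnt5b did not pass, with values of -1.74, 0.20 and -0.45.

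Of the 10 receptors, 7 fell and 2 rose. The 7 that fell were the 7 abundant ones. Fzd5 fell most, with a limma log2 difference of -2.40 (SE 0.07, adjusted p = 1.03e-06), to 0.188 of the WT NULL mean. Fzd8, at -1.55 (SE 0.07, adjusted p = 6.86e-06), Fzd2, at -1.34 (SE 0.06, adjusted p = 6.39e-06), and Fzd4, at -1.11 (SE 0.07, adjusted p = 4.19e-05), followed. Smaller falls were those of Fzd6, at -0.86 (SE 0.08, adjusted p = 0.000213), Fzd7, at -0.66 (SE 0.05, adjusted p = 6.06e-05), and Fzd1, at -0.49 (SE 0.06, adjusted p = 0.000666). The scarce receptors Fzd3 and Fzd10 rose, at 1.60 (SE 0.17, adjusted p = 0.000314) and 1.75 (SE 0.59, adjusted p = 0.0459). Fzd9 did not pass (0.56).

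All 4 measured inhibitors passed. Sfrp4 fell, with a limma log2 difference of -2.44 (SE 0.32, adjusted p = 0.00093), and Sfrp1 fell, with -0.94 (SE 0.08, adjusted p = 0.000119). Dkk2 rose, with 1.04 (SE 0.15, adjusted p = 0.00153), and Dkk3 rose by less, at 0.37 (SE 0.06, adjusted p = 0.00292). The count was 17 to 19 when any other library was left out.

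**Figure D4:**
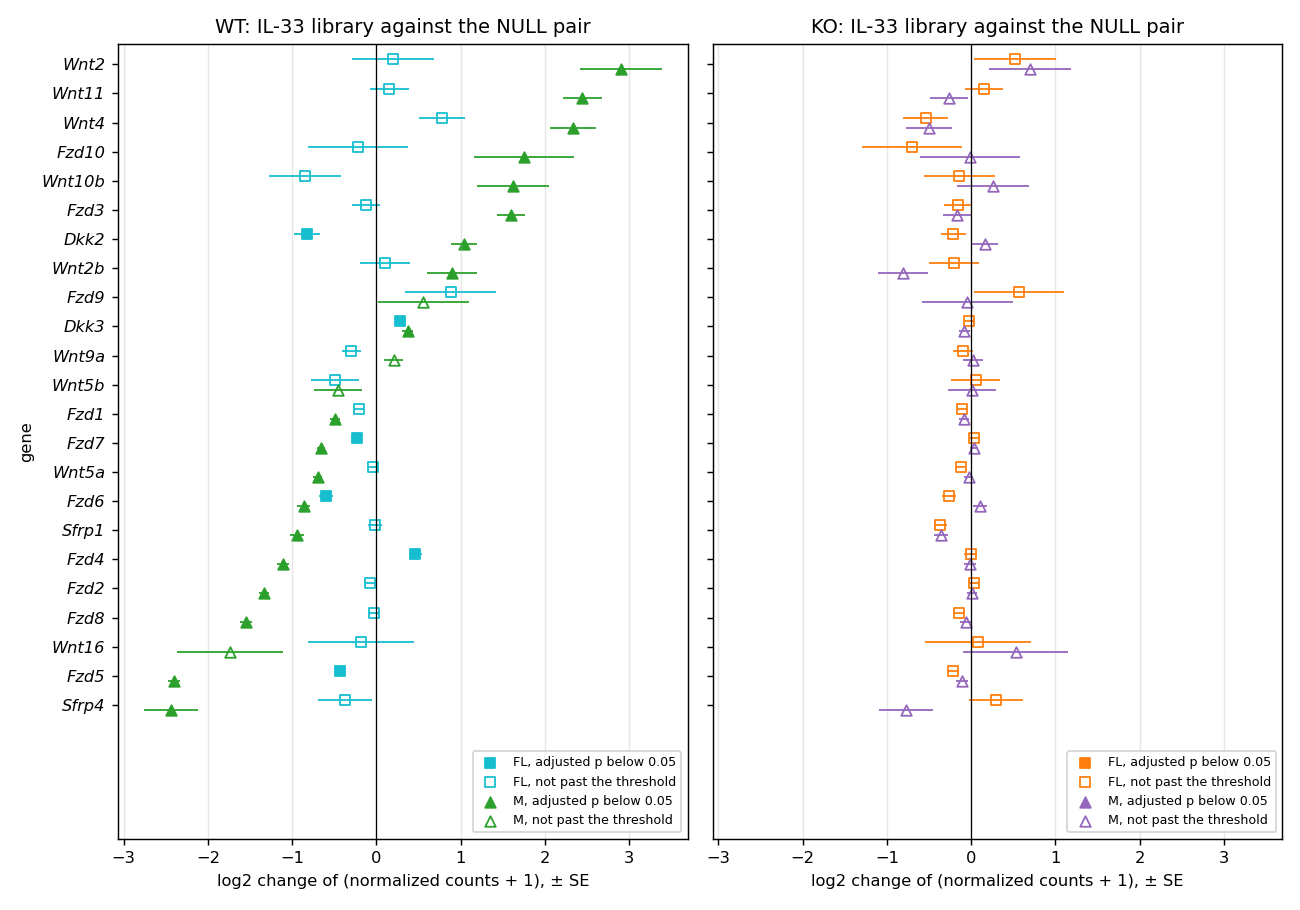
Fitted log2 change (horizontal, ± SE) of each of the 23 members for the FL (squares) and M (triangles) library against the NULL pair, in WT (left) and KO (right) on the same axis; filled symbols passed an adjusted p of 0.05. In WT 6 FL and 19 M values are filled, and in KO none is.

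The WT M library differed from the NULL pair in its cell markers too. Of the fibroblast markers 10 of 12 were lower, with a sum 0.568 times the WT NULL mean. All 9 mesothelial markers were higher (sum 8602, against 2290 and 2332 in the NULL pair) and all 11 macrophage markers were higher (47176, against 20117 and 20981). Of the smooth muscle and pericyte markers 8 of 10 were lower and 1 higher, of the endothelial markers 5 of 8 lower and 1 higher, and of the epithelial markers 4 of 7 lower and 2 higher. The mesothelial marker Calb2 was 5.03 in WT M and 0 in both NULL libraries. The macrophage marker Marco was 1.01 in WT M, 0.803 in WT NULL 1 and 0 in WT NULL 2. Neither reached the level tested. Their part in the changes of the Wnt genes was not tested, and with 1 library the virus and the culture cannot be told apart.

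**Figure D5:**
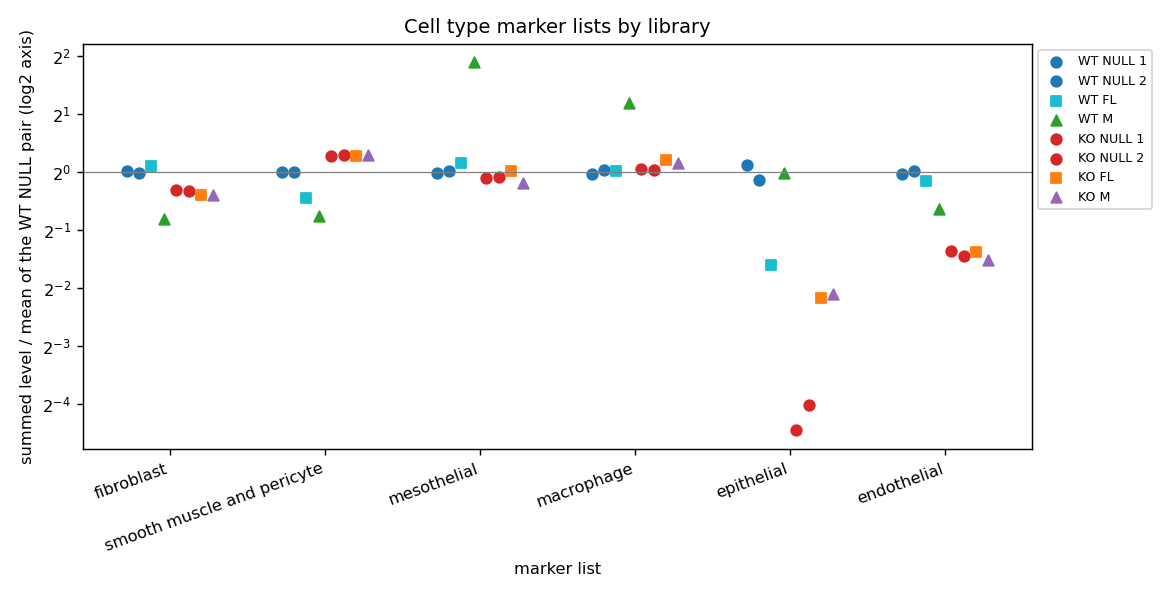
Summed normalized counts of each cell type marker list in the 8 libraries, divided by the mean of the WT NULL pair (vertical, log2 axis). In WT M the mesothelial list is at 3.72 and the macrophage list at 2.30 times that mean, and the endothelial and epithelial lists are below it in the KO libraries.

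In a direct comparison of the WT M and WT FL libraries, added after the values were seen, 16 of 23 members passed, against 36% of all genes. The SE and p rest on the spread of the NULL pairs, since each side is 1 library, so they compare these libraries and not the conditions. Wnt2 was tested only because of its level in WT M. Of the ligands, 5 were higher with M: Wnt2, at 2.71 (SE 0.56, adjusted p = 0.0104), Wnt10b, at 2.47 (SE 0.49, adjusted p = 0.00893), Wnt11, at 2.29 (SE 0.26, adjusted p = 0.00088), Wnt4, at 1.55 (SE 0.31, adjusted p = 0.00954), and Wnt9a, at 0.50 (SE 0.13, adjusted p = 0.0253). Wnt5a was lower, at -0.65 (SE 0.06, adjusted p = 0.00026). Of the receptors, 6 were lower with M. The differences were largest for Fzd5, at -1.97 (SE 0.08, adjusted p = 8.9e-06), Fzd4, at -1.57 (SE 0.09, adjusted p = 3.42e-05), Fzd8, at -1.52 (SE 0.08, adjusted p = 2.91e-05), and Fzd2, at -1.26 (SE 0.07, adjusted p = 3.3e-05). They were smaller for Fzd7, at -0.44 (SE 0.06, adjusted p = 0.00142), and Fzd1, at -0.28 (SE 0.07, adjusted p = 0.0207). Fzd3 was higher, at 1.73 (SE 0.19, adjusted p = 0.000758). Of the inhibitors, Dkk2 was higher, at 1.87 (SE 0.18, adjusted p = 0.000371), and both Sfrp genes were lower, Sfrp4, at -2.07 (SE 0.37, adjusted p = 0.00588), and Sfrp1, at -0.93 (SE 0.09, adjusted p = 0.000451). Fzd6, at -0.27 (adjusted p = 0.0676), and Dkk3, at 0.09 (adjusted p = 0.363), did not pass. WT M held less Il33 transcript than WT FL.

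In KO cells no member passed for IL-33 against NULL by limma, with FL and M together (0 of 23, against 0.0193% of all genes). An unadjusted p below 0.05 was found for 0 members and for 333 of all 15527 genes. The smallest p belonged to Wnt2b, at -0.50 (SE 0.36, adjusted p = 1), Sfrp1, at -0.36 (SE 0.26, adjusted p = 1), and Wnt4, at -0.52 (SE 0.48, adjusted p = 1). For KO FL alone 0 members passed, against 0.238% of all genes, and 4 had an unadjusted p below 0.05; the first 3 were Sfrp1, at -0.37 (SE 0.08, adjusted p = 0.165), Fzd6, at -0.26 (SE 0.08, adjusted p = 0.277), and Fzd5, at -0.22 (SE 0.07, adjusted p = 0.282). For KO M alone 0 passed, against 0.0322%, and 3 had an unadjusted p below 0.05: Sfrp1, at -0.36 (SE 0.08, adjusted p = 0.421), Wnt2b, at -0.81 (SE 0.30, adjusted p = 0.57), and Sfrp4, at -0.78 (SE 0.32, adjusted p = 0.601). Sfrp1 was below both NULL libraries in KO FL and in KO M.

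Whether the virus acted differently by genotype was tested as the KO minus WT difference of the IL-33 effect. No member passed by limma, against 0.129% of all genes. An unadjusted p below 0.05 was found for 4 members and for 1398 of all 15527 genes. Dkk3 had a difference of -0.38 (SE 0.11, adjusted p = 0.483), Fzd6 of 0.65 (SE 0.21, adjusted p = 0.498) and Wnt4 of -2.08 (SE 0.68, adjusted p = 0.498). For Wnt4, Dkk3 and Wnt2b both IL-33 libraries were above the NULL pair in WT and below it in KO. The margin of WT FL was narrow for Wnt2b (45 against 44.2 in WT NULL 2). For Fzd7 the reverse held. With 6 groups 12 members passed, against 20.5% of all genes, led by Fzd5 at 1.26 (SE 0.08, adjusted p = 0.000146). Without WT FL the count was 17, against 36.2% of all genes, and without WT M it was 1, against 3.19%: Fzd4, at -0.47 (adjusted p = 0.034). The effects in the 2 genotypes use different NULL pairs, while all comparisons within a genotype share 1 pair.

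Other genes of the pathway were counted in 4 lists, to be read against the share of all genes that passed in the same comparison: 11.9% for genotype on average, 4.28% with the NULL virus, 7.39% for WT FL and 49.3% for WT M. Among the 11 measured genes for Wnt secretion and extracellular modulation, 1 was lower in KO on average, the glypican Gpc4, with a limma log2 difference of -0.53 (SE 0.11, adjusted p = 0.0264). With the NULL virus Gpc4 (-0.79) and Sost, a secreted Lrp antagonist at 43.4 and 48.5 in WT NULL and 3.55 and 1.41 in KO NULL, were lower. Sost reached the mean of 10 only through the WT NULL pair, so its lower values elsewhere are tied to having been tested. In WT FL the R-spondin Rspo3, which raises Frizzled levels at the surface, rose by 0.65 (adjusted p = 0.00131), and Gpc4 (-0.37), Trabd2b (-0.40) and Sost, at 1.07, were lower. In WT M all 11 passed, 3 higher and 8 lower. Rspo2 fell by 2.66, Rspo3 by 0.82, Gpc4 by 0.86 and Wls, the carrier of Wnt proteins out of the cell, by 0.73 on the log2 scale. Wls itself was 18589 and 19665 in the WT NULL pair, 17930.2 in WT FL and 11492 in WT M. Rspo3 lay above the NULL pair with FL and below it with M.

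Of 17 co-receptors and genes of receptor turnover, 1 was higher and 3 were lower in KO on average. Lgr4, the R-spondin receptor, rose, with a limma log2 difference of 0.61 (SE 0.15, adjusted p = 0.0436), and the co-receptor Lrp5 fell, with -0.25 (SE 0.05, adjusted p = 0.03). The polarity genes Vangl2 (-0.55) and Prickle2 (-0.39) were lower. With the NULL virus limma called none, and 2 had an unadjusted p below 0.05, as had 3283 of all 15527 genes. In WT FL the Wnt5a co-receptor Ror1 fell, with -0.35 (SE 0.07, adjusted p = 0.0277). In WT M 5 rose and 8 fell, the smallest p being those of Ror1, from 2506 and 2553 to 492, Lrp6 (-0.71), Lgr4 (-0.91) and Tspan12 (-1.66), the partner of Fzd4.

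The 23 genes of intracellular transduction gave 1 call by genotype. Apc2 fell, with a limma log2 difference of -0.89 (SE 0.14, adjusted p = 0.0109) on average, and none rose. With the NULL virus it was -1.02 (adjusted p = 0.0414). Ctnnb1, which encodes beta-catenin, ran from 14742 to 16297 over the 8 libraries. In WT FL 1 passed, Tcf7l2, at -0.42 (SE 0.10, adjusted p = 0.0496). In WT M 2 rose and 12 fell, with the smallest p for Bcl9l (-0.93), Tcf7l1 (-1.12), Dvl3 (-0.79) and Daam2 (-2.05).

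Of 16 measured genes listed as Wnt targets, limma called 3 higher and 0 lower in KO on average. Cd44, a hyaluronan receptor, rose, with a limma log2 difference of 1.22 (SE 0.12, adjusted p = 0.00215), from 6986 and 7256 in WT NULL to 17810.5 and 17668 in KO NULL. Nkd2 (1.64, adjusted p = 0.0142) and Apcdd1 (0.95, adjusted p = 0.0144), both inhibitors of the pathway, rose as well. With the NULL virus Cd44 alone passed. The levels went both ways. All KO libraries lay below both WT NULL libraries for Ccn4, Ccn5, Ccnd1 and Nkd1, which were not called. All lay above them for Cd44, Nkd2, Apcdd1, Bambi, Jun, Myc and Twist1. WT M was below the KO libraries for Ccn4, Ccn5 and Nkd1 and above them for Ccnd1. Axin2, a widely used reporter of the beta-catenin branch, was scarce, at 11.3 to 33 in all libraries, and passed in no comparison.

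The targets split in the WT IL-33 libraries. In WT FL the matricellular genes Ccn5 (-0.24) and Ccn4 (-0.24) fell and Myc (0.39) rose. In WT M 7 rose and 6 fell: Ccn5 went from 30266 and 30369 to 4549, Ccn4 fell by 1.54 on the log2 scale, Nkd2 fell by 1.55, and Myc (1.37) rose. Limma called 0 genes of the 4 lists for IL-33 in WT, for IL-33 in KO, FL and M combined, and for the difference between genotypes. In that order, an unadjusted p below 0.05 was found for 16, 1 and 5 of the 67 tested. Over all 15527 genes it was found for 3425, 333 and 1398. By library in KO, none of the list genes passed either. Between WT M and WT FL, 8 of 11 modulators, 10 of 17 co-receptors, 8 of 23 transduction genes and 12 of 16 targets passed, against 36% of all genes. In the averaged genotype comparison the medians of the 4 lists, in that order, were 0.018, -0.20, -0.047 and 0.16, beside 0.0013 over all genes. Without WT M, a setting chosen after the values were seen, the WT IL-33 group is 1 library, in the genotype fits as well. Calls in the 4 lists are therefore not counted there. The genotype counts of the lists rest on fits with WT M, whose spread holds the difference between WT FL and WT M. For WT M against its NULL pair the list medians were -0.82, -0.15, -0.25 and 0.21, beside -0.015. Lef1, among the targets that rose in WT M, was 52.4 there and at most 12.2 elsewhere. It reached the mean of 10 only through WT M, so its rise is tied to having been tested. Several listed targets also answer to other pathways, so the list is a description of these genes.

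Reads can be shared with other genes. Of the 31-base words in the transcripts of each tested member, under 2% also occurred in another gene for 18 of the 23. Fzd5 shared 17.2%, mostly with Gm38058, which lies on the opposite strand and was at 1.16 to 7.06 normalized counts, and the kit's strand setting is not given in the sources used here. Wnt11 shared 8.02% with Gm8398, listed at 0 throughout. Wnt4 shared 6.62% over several genes, of which Eif2a (at least 1113 normalized counts in every library) and Med25 (1358 to 1711) came first, with 1.90% for Eif2a. Both stood far above Wnt4 itself, so the level of Wnt4 is uncertain where such reads were split. Wnt5a shared 4.18% and Fzd6 2.66%. Among themselves Fzd1, Fzd2 and Fzd7 shared 0.777% to 1.9% with other genes, mainly each other.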

How the data were processed

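RNA sequencing of 8 lung fibroblast libraries was used. The signal values are normalized counts that the authors deposited; per the submitters' processing notes Salmon, DESeq2 and GRCm38.p6 were involved, with versions and strand setting not given in the sources used here. Reads are therefore shared out by an estimate, which matters most for genes with similar sequence. Of the values up to 12, 50.4% to 70.9% per library were whole multiples of 1 read (tolerance 0.02 of a step), too few to recover reads, and no count model was used. Of 54331 gene IDs, 54097 were given symbols from the GENCODE annotation, 53444 with the same version.

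Genes with a mean of at least 10 were tested with limma 3.58.1 in R 4.3.3 (mean-variance trend) on log2(value + 1), which understates changes of scarce genes; calls have a two-sided Benjamini-Hochberg adjusted p under 0.05 over all 15527 genes. Genotype by virus gave 4 groups, with FL and M as IL-33 replicates (4 residual and 2.82 prior degrees of freedom), or 6 groups for single libraries (2 and 4.78). Levels per kb divide by merged exon length. Figures were drawn with matplotlib 3.10.9.

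Members and gene lists were chosen with earlier results of these data known. Named were all members with a mean of at least 10, with log2 value, SE and adjusted p where they passed, otherwise the 3 with the smallest p, and up to 4 called genes of each pathway list, by p; any further list gene was picked with its values in view. Equal numbers of the NULL libraries do not pair them: the correlation of their deviations over genes was 0.0231. Alternatives are listed in the closing section.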

Additional observations from a re-analysis of the deposited data

How the results depend on the processing

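Alternatives were a constant of 0.5 or 8, a minimum mean of 50 or none, TMM or quantile scaling, the replicate block, 6 groups and each library left out; under these no member called at first changed sign. For genotype averaged over viruses, 35 of 48 values of called members kept their call and 13 lost it; for WT M 248 of 261 kept it, and for WT FL 59 of 84. Members called for genotype averaged over viruses were 14 with 6 groups and 1 to 16 with a library left out. With the NULL virus they were 2 with TMM, 2 with quantile scaling, where Fzd1 joined Fzd6, 11 with 6 groups and 0 to 11 with a library left out. For IL-33 in WT they were 15 with 6 groups and 0 to 18 with a library left out, and for the difference between genotypes 12 and 0 to 17. For WT FL they were 1 without a filter, 2 with the replicate block (a paired fit on the NULL numbers, which do not pair the libraries) and 1 to 6 with a library left out. For KO M 1 was called without a filter, Dkk4, which rests on about 1 read. With the replicate block Fzd1 lost its averaged genotype call (adjusted p = 0.0772). The causes were not tested. FL and M have 1 library per genotype, so the virus cannot be told apart from the culture. Below about 3 reads, or 2.12 to 3.55 normalized counts, no difference can be relied on, and detection there was not tested.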
